A study of Mus musculus with 8 samples.

Results

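The 10 genes described here are the Notch ligands Jag1, Jag2, Dll1 and Dll4, the receptors Notch1, Notch2, Notch3 and Notch4, and the target genes Hes1 and Hey1. They were chosen by name, and each was found as 1 row among the 52636 genes of the count table. The counts come from polyA RNA of mesenchymal stem/progenitor cells (MSPCs), the perivascular stromal cells that feed blood progenitors in the bone marrow, in 8 mice on a C57BL/6 background labelled as 6 weeks old. The study's methods give all mice an older age range than the labels. The 4 control (CTR) mice were Flk2-cre+ Cxcr4fl/+, and the 4 conditional knockout (cKO) mice were Flk2-cre+ Cxcr4fl/fl. All of these mice thus carried the cre transgene and at least 1 floxed Cxcr4 allele, and, per the methods, the SCF-GFP allele used for sorting. Kitl encodes SCF, and the paper's mouse list names a heterozygous Kitl-GFP allele, which it uses to lower SCF protein. With that allele, the paper reports membrane-bound SCF of cKO mice at the wild-type level and hematopoietic stem cell numbers at physiological levels. The Flk2-cre transgene acts in hematopoietic multipotent progenitors and their descendants, and sits on the Y chromosome, so the MSPCs themselves are not the cells in which Cxcr4 is deleted. MSPCs were sorted by the surface receptor PDGFRα and by SCF-GFP, after removal of blood cells by CD45 and Ter119 and of endothelial cells by CD31 and CD144. The genotype comparison asks how the niche cell changes when its hematopoietic neighbors lose Cxcr4.

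Notch is a receptor that is activated by ligands of the Jagged and Delta families on a touching cell. Binding lets ADAM proteases and then the gamma-secretase complex cut the receptor, and the released intracellular part enters the nucleus, where it joins the DNA-binding factor RBPJ and Mastermind coactivators to switch on genes such as the HES and HEY repressors. In bone marrow the pathway is known for the ligands that stroma and vessels present to blood cells, and for its part in vascular mural cells and in bone formation.

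Levels are given as CPM, the counts of a gene scaled to a common library size, here after TMM scaling, a correction for library composition. Total counts ranged from 31047344 to 38216877 per library. All 12 of 12 MSPC markers were detected in every library, with summed levels of 56210 to 68345 CPM in CTR and 57179 to 69324 CPM in cKO. All 15 endothelial markers averaged under 5 CPM, with Tek, Sox17 and Robo4 at 0 in all 8 libraries, and their sum was 6.89 to 16.4 CPM in CTR and 7.10 to 11.5 CPM in cKO. Counts of Cxcr4 were 4 to 19 in CTR libraries and 0 to 12 in cKO libraries, and in these cells it does not check the genotype. The number in each sample title falls into 2 ranges, 67 to 86 for replicates 1 and 3 of each genotype and 26 to 32 for replicates 2 and 4, and its meaning is not given.

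The promoters of the 2 most abundant receptors and of Lfng, the most abundant glycosyltransferase of the pathway, are shown because they differ in matches to the core of the RBPJ site. The motif searched was TGGGAA on either strand, in windows from 250 bases before to 50 bases after the RefSeq start (GRCm38.p6), printed 5′ to 3′ on the strand of the gene, with each match in capitals. The windows are chr17:32166841-32167140 on the minus strand for Notch3, chr3:98013288-98013587 on the plus strand for Notch2, and chr5:140607091-140607390 on the plus strand for Lfng.
Notch3: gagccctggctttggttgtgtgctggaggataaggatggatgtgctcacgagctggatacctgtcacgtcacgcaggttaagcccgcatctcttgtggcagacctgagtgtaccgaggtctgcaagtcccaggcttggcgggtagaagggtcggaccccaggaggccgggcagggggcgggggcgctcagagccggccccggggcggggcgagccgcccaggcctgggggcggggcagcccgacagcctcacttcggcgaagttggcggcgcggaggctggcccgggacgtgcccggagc
Notch2: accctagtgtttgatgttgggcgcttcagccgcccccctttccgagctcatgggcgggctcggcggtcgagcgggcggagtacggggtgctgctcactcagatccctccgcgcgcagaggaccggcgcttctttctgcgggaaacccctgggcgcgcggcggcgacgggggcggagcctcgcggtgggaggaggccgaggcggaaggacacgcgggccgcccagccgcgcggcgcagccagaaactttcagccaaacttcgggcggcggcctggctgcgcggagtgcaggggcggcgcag
Lfng: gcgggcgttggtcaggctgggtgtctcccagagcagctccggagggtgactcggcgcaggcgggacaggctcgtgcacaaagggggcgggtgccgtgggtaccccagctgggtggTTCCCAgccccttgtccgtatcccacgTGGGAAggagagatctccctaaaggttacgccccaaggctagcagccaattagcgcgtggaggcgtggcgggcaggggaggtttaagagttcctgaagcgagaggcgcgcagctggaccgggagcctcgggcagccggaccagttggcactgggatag

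The Lfng window holds a match on each strand, starting at bases 116 and 143. RefSeq windows were at hand for 8 of the 10 members, which have 9 windows in all, and 0 of these 9 hold the motif, against 25.6% of all 32851 promoters of the same length. Hes1 and Hey1 were not among the members with a window. Most promoters thus hold no match, 9 windows are few, and the difference was not tested. Of 45 other pathway genes with a window, 14 hold a match, and Hes5, Hey2, Lfng and Rbpj have 2 matches in 1 window. Of these 4 genes, Hes5 had counts in 1 library only, and Hey2 averaged 1.09 CPM per kilobase of exon.

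MSPCs expressed 1 ligand, 3 receptors and both targets at a mean of at least 1 CPM per kilobase of exon, the scale on which genes of different length are compared. Hes1, a transcriptional repressor and the best known target of the pathway, had the highest level at 77.8 ± 26.6 CPM per kilobase (SD, n = 8), which is place 490 of 14575 genes ranked. Notch3, the receptor typical of mural cells, followed at 43.5 ± 2.61, Notch2 at 23.1 ± 3.39, Jag1 at 9.24 ± 2.88, Hey1 at 7.12 ± 1.73 and Notch1 at 4.27 ± 0.720. Notch4, a receptor best known from endothelium, was at 0.607 ± 0.263, Dll1 at 0.318 ± 0.214, Jag2 at 0.0301 ± 0.0413 and Dll4 at 0.00591 ± 0.0167 CPM per kilobase. In this order, the ranges of Notch3 and Notch2, of Notch2 and Jag1, and of Notch1 and Notch4 did not overlap over the 8 libraries. The ranges of Hes1 and Notch3 overlapped, although Hes1 was above Notch3 in each of the 8 libraries. Jag1 overlapped Hey1 and was above it in 6 libraries, and Hey1 overlapped Notch1 and was above it in 7. Notch4, Dll1, Jag2 and Dll4 each overlapped the next. Apart from Hes1 and Notch3, the order within the overlapping pairs thus did not hold in every library, and no test was made between genes. With the length of the longest transcript in place of all exons the order was the same, but Jag1 and Hey1 came to 9.60 and 9.59 CPM per kilobase, and Hes1 to 108. On that scale Hes1, at 63.3 to 167, did not overlap Notch3, at 39.7 to 47.1.

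**Figure D1:**
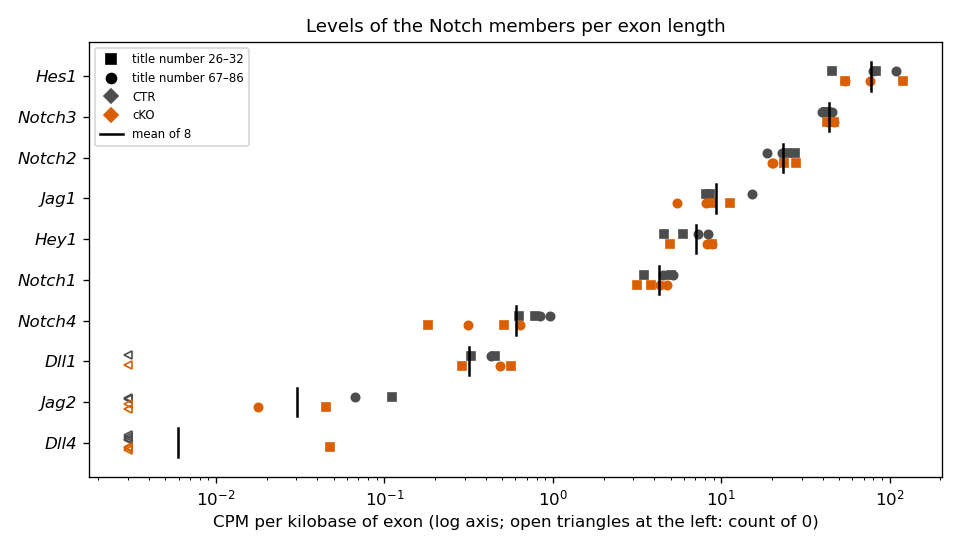
CPM per kilobase of exon (log axis) of the 10 members in each of 8 libraries, with CTR in grey, cKO in orange, squares for title numbers 26 to 32, circles for 67 to 86, and a line at the mean. Notch3 stays between 39.4 and 46.7, while Dll1, Jag2 and Dll4 have libraries with a count of 0, drawn as open triangles at the left edge.

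Among the ligands, Jag1, a Jagged family protein carried on stromal cells, made up nearly all of what was measured. Its share of the summed ligand level per kilobase was 93.6% to 99.7% in single libraries. Jag1 lies on chromosome 2 from 137081456 to 137116644 (minus strand), and its level was 89.0, 49.9, 48.5 and 47.6 CPM in CTR1 to CTR4 and 47.6, 51.1, 32.0 and 65.4 CPM in cKO1 to cKO4. CTR1 stood above the other 7 libraries and cKO3 below them, and the genotypes overlapped. The CTR mean was 58.7 ± 20.2 CPM and the cKO mean 49.0 ± 13.7 CPM (SD, n = 4 each).

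The Delta ligands and Jag2 were low, and each had libraries with a count of 0. Dll1, a Delta ligand on chromosome 17 from 15367354 to 15376872 (minus strand), had 56, 45, 0 and 71 counts in CTR1 to CTR4 and 67, 43, 0 and 91 counts in cKO1 to cKO4. It was thus absent from the counts of CTR3 and cKO3, and was at 1.23 to 2.37 CPM in the other 6 libraries. A count of 0 allows up to 3 counts, or 0.0922 CPM in CTR3 and 0.0907 CPM in cKO3 before TMM scaling. Dll4, the Delta ligand typical of arterial endothelium, on chromosome 2 from 119325784 to 119335962 (plus strand), had 7 counts in cKO4 and 0 in the other 7 libraries. Jag2, the second Jagged ligand, on chromosome 12 from 112907819 to 112929776 (minus strand), had 0, 0, 15 and 29 counts in CTR1 to CTR4 and 0, 11, 4 and 0 counts in cKO1 to cKO4. Part of the Dll1 value is uncertain, because 20.55% of its exon bases overlap A930024N18Rik on the opposite strand, a gene with 0 to 34 counts, and the strand setting of the counting is not given in the sources used here.

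Among the receptors, Notch3 and Notch2 made up most of the measured level in every library. Notch3 accounted for 60.9% ± 2.62 of the summed receptor level per kilobase (SD, n = 8), Notch2 for 32.3% ± 3.28, Notch1 for 6.00% ± 1.12 and Notch4 for 0.862% ± 0.399. The summed level of all 4 receptors was 70.9 ± 5.14 CPM per kilobase in CTR and 72.1 ± 4.48 in cKO. 

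Notch3 lies on chromosome 17 from 32120820 to 32166852 (minus strand) and was the steadiest member. It stood at 370, 337, 318 and 341 CPM in CTR1 to CTR4 and at 349, 378, 377 and 345 CPM in cKO1 to cKO4, so the highest library was 1.19 times the lowest. The SD of its log2 CPM over the 8 libraries was 0.087, against 0.21 for Notch2, 0.25 for Notch1, 0.38 for Hey1, 0.42 for Jag1, 0.50 for Hes1 and 0.79 for Notch4. As this SD also varies with level, each member was set beside genes within a factor of 1.2 of its mean CPM. A smaller SD was found in 7.7% of those genes for Notch3, 64% for Notch2 and 75% for Notch1. The share was 80% for Hey1, 93% for Jag1, 96% for Hes1 and 79% for Notch4.

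Notch2, on chromosome 3 from 98013527 to 98150361 (plus strand), stood at 248, 265, 200 and 295 CPM in CTR1 to CTR4 and at 218, 300, 216 and 254 CPM in cKO1 to cKO4. Its 4 highest libraries were those with title numbers 26 to 32, and its genotypes overlapped. Notch1, on chromosome 2 from 26457903 to 26516663 (minus strand), stood at 73.3, 71.2, 64.0 and 49.5 CPM in CTR and at 67.4, 54.6, 61.3 and 45.0 CPM in cKO, again with overlap. Part of each value is uncertain where another annotated gene overlaps the exons. Of the exon bases of Notch1, 7.50% overlap 0610009E02Rik on the opposite strand (109 to 234 counts) and 2.91% Gm13568 on that same opposite strand (0 to 4 counts). Of those of Notch3, 6.03% overlap Gm17276 on the opposite strand (357 to 622 counts), and of those of Notch2, 5.02% overlap Gm42820 on its own strand (17 to 77 counts).

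Notch4 was the one member with a genotype difference at an unadjusted p under 0.05, and it was also the receptor of lowest level. Notch4, on chromosome 17 from 34564268 to 34588503 (plus strand), had 208, 165, 250 and 235 counts in CTR1 to CTR4 and 83, 51, 168 and 160 counts in cKO1 to cKO4, or 6.73, 5.06, 7.76 and 6.29 CPM in CTR and 2.54, 1.45, 5.17 and 4.16 CPM in cKO. The groups overlapped only through CTR2, which lay below cKO3. The log2 fold change was -0.95 (SE 0.39, a cKO level 0.516 times that of CTR), with an unadjusted p of 0.0358 in edgeR's quasi-likelihood test and an adjusted p of 0.999 over 14598 genes (Benjamini-Hochberg). An unadjusted p under 0.05 was reached by 4.43% of all genes tested and by 1 of the 7 members tested, and the difference did not pass the adjusted threshold. The cKO mean was lower in both ranges of title numbers, by a log2 difference of -1.17 within 26 to 32 and -0.98 within 67 to 86 (2 libraries against 2 in each, no test).

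Marker values of other cells, and values of rapid-response genes, are given beside Notch4. Of 15 endothelial markers, all of which averaged under 5 CPM, 3 were tested. Their log2 fold changes in cKO were 2 negative and 1 positive (median -0.020). Of 10 smooth muscle and pericyte markers, 7 were tested, with 4 negative and 3 positive log2 fold changes in cKO. Rgs5, a pericyte gene, was at 9.84 to 28.6 CPM in CTR and 3.15 to 14.6 CPM in cKO (log2 fold change -1.20, SE 0.51, edgeR adjusted p 0.999), and the summed level of the list was 186 to 269 CPM in CTR and 191 to 304 CPM in cKO. Abcc9 weighed most in that sum, at 90.9 to 141 CPM in CTR and 90.8 to 186 CPM in cKO. Cnn1 of this list was at 0 in all but 1 library. Of 14 hematopoietic markers, 6 were tested, all 6 with a positive log2 fold change in cKO (median 0.57), 0 of them at an unadjusted p under 0.05. The sum of all 14 was 62.8 to 164 CPM in CTR and 136 to 239 CPM in cKO. Of 14 rapid-response genes, 11 were tested, and 10 of these had negative log2 fold changes in cKO. Of those 10, 5 had an unadjusted p under 0.05 and 0 passed the adjusted threshold. The sums of all 14, at 1265 to 1356 CPM in CTR and 859 to 1161 CPM in cKO, did not overlap. They include Fos, at 242 to 385 CPM in CTR and 88.5 to 211 CPM in cKO, whose own groups did not overlap. Of all single genes tested, 2.62% had groups that did not overlap. The lists were chosen with earlier results of these data known, so the sums are a description only. The part of these cells or genes in the Notch4 value was not tested. In bulk RNA, fewer cells that express Notch4 and less Notch4 RNA per cell cannot be told apart. 

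Both targets varied among libraries of 1 genotype. Hes1, on chromosome 16 from 30064384 to 30067796 (plus strand), stood at 222, 169, 163 and 92.9 CPM in CTR1 to CTR4 and at 156, 110, 110 and 245 CPM in cKO1 to cKO4. The highest libraries were cKO4 and CTR1, and the lowest was CTR4, so each genotype spanned most of the range. Hey1, a second repressor induced by Notch, on chromosome 3 from 8663359 to 8667256 (minus strand), stood at 27.2, 15.0, 23.6 and 19.4 CPM in CTR and at 28.7, 16.2, 26.9 and 28.9 CPM in cKO. Its level per kilobase was below that of Hes1 in every library, by 6.56 to 18.0 times.

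**Figure D2:**
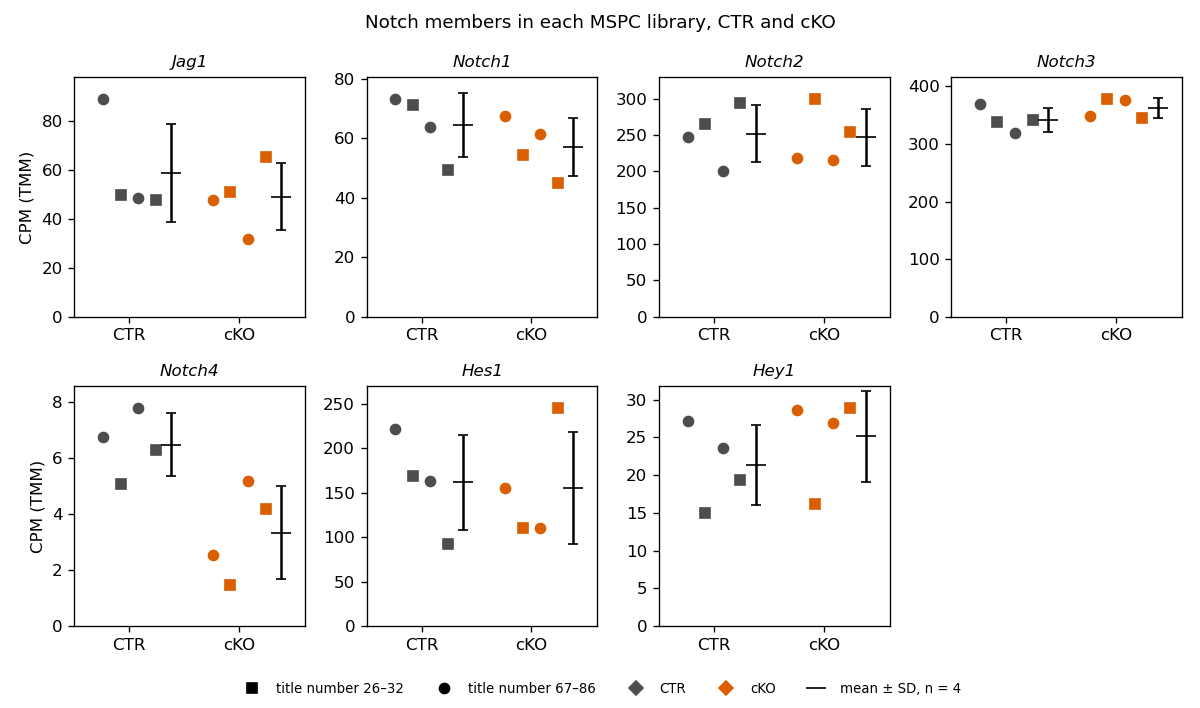
CPM (TMM-scaled) of the 7 members tested, 1 point per library, with CTR in grey, cKO in orange, squares for title numbers 26 to 32, circles for 67 to 86, and bars for mean ± SD (n = 4). The groups overlap in every panel, least so for Notch4, where 1 CTR library at 5.06 CPM lies below the highest cKO library at 5.17 CPM.

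Between genotypes, 0 of the 7 members that had a count in every library passed an adjusted p of 0.05 in edgeR's quasi-likelihood test, as did 0 of all 14598 genes (0%), of which 646 had an unadjusted p under 0.05. DESeq2's Wald test called 23 of 14598 genes (0.158%) and its likelihood ratio test 22 (0.151%). With the title number as a term, the latter called 47 (0.322%), and 0 members were among the calls of any of these tests. The log2 fold changes, cKO against CTR, were -0.26 (SE 0.25) for Jag1, -0.18 (SE 0.16) for Notch1, -0.029 (SE 0.15) for Notch2, 0.084 (SE 0.086) for Notch3, -0.056 (SE 0.30) for Hes1 and 0.24 (SE 0.24) for Hey1. The median over the 7 members was -0.056, and over all genes tested -0.0013. The groups overlapped for all 7, while 2.62% of all genes tested had groups that did not overlap. Jag2, Dll1 and Dll4 failed the filter. Without it, the fit gave Dll1 a log2 fold change of 0.15 (SE 1.32) and Jag2 -1.48 (SE 1.89), errors that cover large differences in either direction, and no fold is given for Dll4, which had 0 counts in all CTR libraries.

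Jag1 and Hes1 did not keep their direction when the genotypes were compared within a range of title numbers. The log2 difference of Jag1 was 0.24 within 26 to 32 and -0.75 within 67 to 86, and that of Hes1 was 0.39 and -0.54 (2 libraries against 2, no test). Without CTR1, Jag1 was at 0.010 over all libraries. Notch3 was at 0.090 and 0.080 in the 2 ranges, and Hey1 at 0.34 and 0.13.

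**Figure D3:**
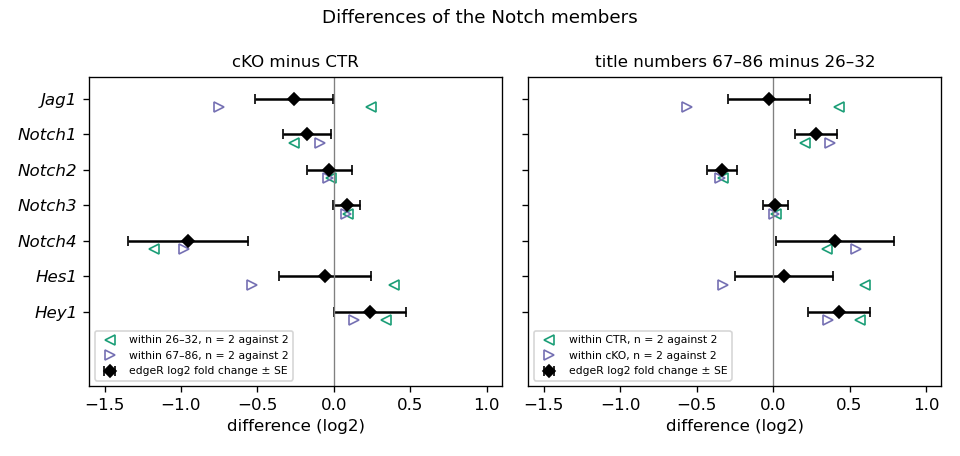
Differences of the 7 members tested on the log2 scale, cKO minus CTR at the left and title numbers 67 to 86 minus 26 to 32 at the right, as edgeR log2 fold changes ± SE (diamonds, 8 libraries) and as differences of mean log2 CPM within a range or genotype (triangles, 2 libraries against 2). Notch4 lies furthest from 0 at the left, at -0.95, and the triangles of Jag1 and Hes1 lie on both sides of 0 in both panels.

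Most of the rest of the pathway was present in MSPCs, with gaps among the ligands, as for the members. There were also gaps among the 8 genes listed as other targets, of which 3 had a count in every library, and among the enzymes. Of 57 other pathway genes listed by role, 44 had a count in every library. Of the other ligands, none of Dll3, Dlk1, Dlk2 and Dner did; Dlk2 led with 0.323 CPM per kilobase, Dlk1 followed with 0.00378, and Dll3 was at 0 in all libraries. Mib1 and Mib2, the ubiquitin ligases by which a cell makes its ligands active, were at 3.75 and 9.87 CPM per kilobase.

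Among enzymes that act on the receptor, Lfng and Rfng, the Fringe glycosyltransferases that tune which ligand a receptor answers to, were at 52.9 and 27.5 CPM per kilobase, while Mfng, the remaining Fringe, was at 0.0231. All 10 receptor protease genes were measured in every library. Ncstn, a gamma-secretase subunit, was the highest pathway gene at 124 CPM per kilobase, with a range of 107 to 130 that overlaps that of Hes1. In the nucleus, the splicing and transcription factor Snw1 was at 19.5, the acetyltransferase Crebbp at 9.66, and the corepressors Ctbp1 and Tle2 at 34.6 and 15.2 CPM per kilobase. The negative regulators of highest level were the Deltex genes Dtx4 at 40.4 and Dtx3l at 15.2 CPM per kilobase.

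The genes listed as other targets, which are HES and HEY relatives and Nrarp, split widely. Whether Notch induces each of them in these cells was not tested. Heyl, a HEY-related repressor typical of mural cells, averaged 33.7 CPM per kilobase, above Hey1, and ranged from 12.7 to 70.1. Hes6, a HES relative, was at 17.5 CPM per kilobase. Hes2 and Hes3 were at 0 in all libraries, and Hes5 and Nrarp, commonly used as readouts of Notch activity, were at 0.0114 and 0.135 CPM per kilobase.

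**Figure D4:**
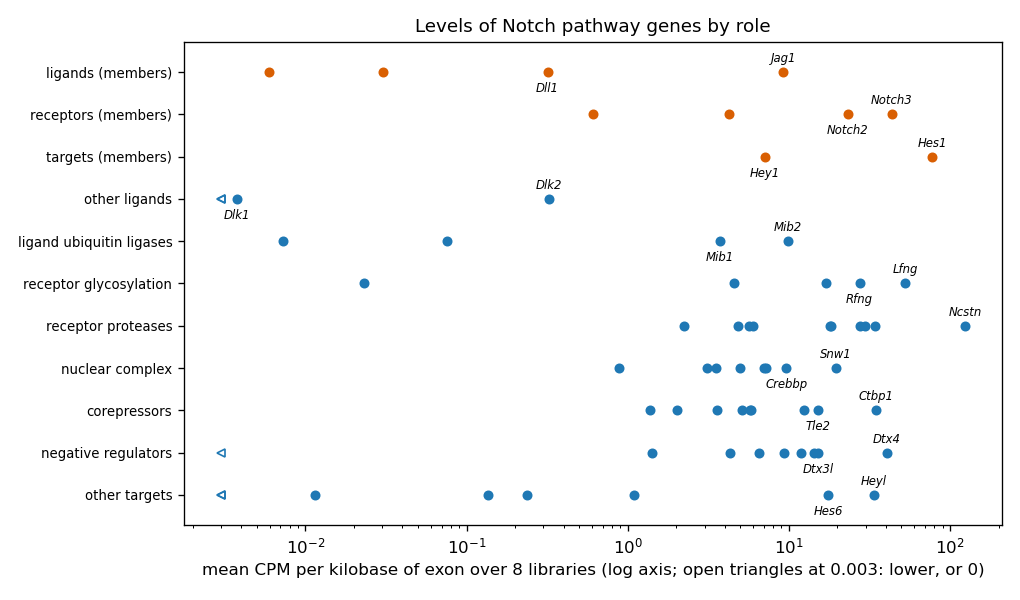
Mean CPM per kilobase of exon over 8 libraries (log axis) of each member (orange) and each of 57 other pathway genes (blue) by role, with up to 2 of the highest genes of each row named. Ncstn at 124 and Hes1 at 77.8 lie highest, and open triangles at the left mark genes under 0.003, among them Dll3, Dtx1, Hes2 and Hes3 at 0.

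None of these genes separated the genotypes. By edgeR's quasi-likelihood test, 0 of the 44 tested had an adjusted p under 0.05, and 0 had an unadjusted p under 0.05, a level that 4.43% of all genes reached. Their log2 fold changes lay between -0.20 and 0.50, with 21 positive, 23 negative and a median of -0.0050. Heyl was at 0.075 (SE 0.47), with a difference of -0.087 within title numbers 26 to 32 and 0.68 within 67 to 86 (2 libraries against 2, no test), and Lfng at 0.16 (SE 0.31).

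By title number, Notch2 was higher in every library numbered 26 to 32 than in any numbered 67 to 86, without passing the adjusted threshold. With 67 to 86 against 26 to 32 and genotype as a term, edgeR's quasi-likelihood test called 2 of 14598 genes (0.0137%) and 0 of the 7 members, while 11.6% of all genes had an unadjusted p under 0.05. Notch2 was the 1 member at that level, and the 1 member whose groups did not overlap, a pattern found in 6.87% of all genes. It was at 278 ± 22.1 CPM in 26 to 32 and 220 ± 19.8 CPM in 67 to 86 (SD, n = 4 each; log2 fold change -0.34, SE 0.098, adjusted p 0.266), and the difference was -0.33 within CTR and -0.35 within cKO. Hey1 was at 0.43 (SE 0.20), Notch4 at 0.40 (SE 0.39) and Notch1 at 0.28 (SE 0.14), and the remaining 3 lay between -0.026 and 0.070.

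The ratio of Notch3 to Notch2 per kilobase was 1.54 to 1.81 in the libraries numbered 26 to 32 and 1.99 to 2.32 in those numbered 67 to 86.

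Of the 44 other pathway genes, 0 passed the adjusted threshold for the title number, and 6 had an unadjusted p under 0.05, a level that 11.6% of all genes reached. These 6 are named after their values were seen. Lfng and Dtx2 were higher in 67 to 86, and Poglut1, Tle2, Dtx3 and Heyl were lower. Heyl had the largest log2 fold change, -1.11 (SE 0.34, edgeR adjusted p 0.284). It stood at 359, 140, 274 and 162 CPM in CTR2, CTR4, cKO2 and cKO4, and at 64.8, 108, 157 and 114 CPM in CTR1, CTR3, cKO1 and cKO3. The ranges met where cKO1 lay above CTR4.

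Dtx3, a Deltex family ubiquitin ligase, was at 43.8 ± 5.15 CPM in 26 to 32 and 30.3 ± 3.72 CPM in 67 to 86 (SD, n = 4 each; log2 fold change -0.53, SE 0.13, adjusted p 0.217 from edgeR). DESeq2's Wald and likelihood ratio tests called it, at adjusted p of 0.0241 and 0.0274, alone among the 44, where they called 2.60% and 2.34% of all genes. Lfng was at 102 ± 29.5 and 164 ± 45.2 CPM (log2 fold change 0.70, SE 0.24, adjusted p 0.317 from edgeR), and its groups overlapped. The groups did not overlap for 4 of the 44 genes, Poglut1, Dtx2, Dtx3 and Ep300, against 6.87% of all genes.

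Values of mural cell markers by title number stand beside these. Of the 7 smooth muscle and pericyte markers tested, 6 had negative log2 fold changes and 0 passed the adjusted threshold. Only Rgs5 had an unadjusted p under 0.05, at a log2 fold change of -1.49 (SE 0.23, adjusted p 0.112 from edgeR). Myh11, which failed the filter, was at 8.18 to 18.9 CPM in 26 to 32 and 0 to 3.79 CPM in 67 to 86. The summed level of all 10 was 191 to 304 CPM against 186 to 225 CPM, and Cnn1 was at 0 in all but 1 library. Abcc9 weighed most in the sum, at 90.8 to 186 CPM in 26 to 32 and 90.9 to 143 CPM in 67 to 86. The sum thus says little about Rgs5 and Myh11. Their part in the values of Heyl and Notch2 was not tested.

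**Figure D5:**
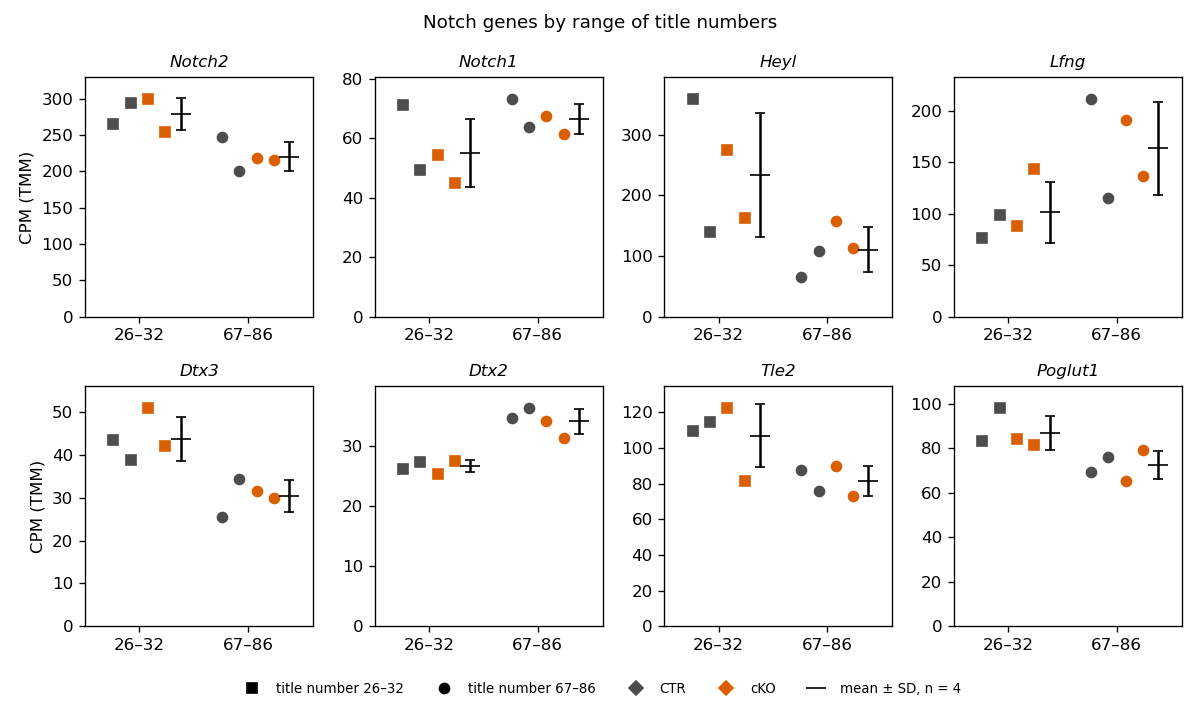
CPM (TMM-scaled) of Notch2, Notch1 and 6 other pathway genes by range of title numbers, 1 point per library, with CTR in grey, cKO in orange, and bars for mean ± SD (n = 4). Notch2, Dtx3 and Poglut1 lie higher in every library numbered 26 to 32 than in any numbered 67 to 86, Dtx2 lies lower, and the ranges of Notch1, Heyl, Lfng and Tle2 overlap.

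Jag1 and Hes1 shared their highest libraries, CTR1 and cKO4. Over the 8 libraries, which share scaling and differ in title number, their log2 CPM had a Pearson r of 0.71 and a Spearman rho of 0.74. With all 8 libraries, this was the highest r of the 21 pairs among the 7 members. Without CTR1 and cKO3, the 2 libraries farthest from the median of Jag1, r was 0.70, but cKO4 was kept. Without the 2 libraries farthest from the median of Notch1, the r of Notch1 and Hes1 went from 0.19 to 0.89. The highest pair thus depends on the libraries used. These are descriptions of 8 points. Notch2 and Hey1 had the most negative r, at -0.64. Notch3 had r between -0.49 and 0.28 with the other 6.

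Genes whose pattern was most like that of the 3 most abundant members were taken from the 9414 genes that averaged at least 10 CPM, by Pearson r of log2 CPM over the 8 libraries. They were Sptssa (0.95), Zfp503 (0.94) and Urb1 (0.92) for Hes1, S100a8 (0.96), Invs (0.96) and Clpx (0.94) for Notch3, and Prpf38b (0.97), Atrnl1 (0.96) and Leng8 (0.96) for Notch2. S100a8, a gene of neutrophils and 1 of the 14 hematopoietic markers, ranged from 7.36 to 28.1 CPM. The genes named are the highest by r among 9414 over 8 points, where unrelated genes can also reach a high r. A link between any of them and the members was not tested.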

How the data were processed

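RNA from MSPCs of 8 mice, 4 CTR and 4 cKO, was sequenced in 8 libraries. Per the methods, the authors trimmed paired reads, aligned them to GRCm38 (mm10) with HISAT2 and counted them per gene with HTSeq, and they deposited raw counts without normalization. Coordinates and exon lengths came from GENCODE M21 on GRCm38, which held 52489 of the 52636 gene identifiers, whereas the methods name another GENCODE release. Counts were scaled by TMM. The 14598 genes with no count of 0 in any library entered edgeR 4.0.16 in R 4.3.3 (glmQLFit, glmQLFTest; Benjamini-Hochberg over all of them, threshold 0.05), without covariates for genotype and with genotype as a term for the title number. The methods correct for a batch that they do not name, and the title number was used in its place as an alternative. The labels call the libraries biological replicates. Intervals from a count of 0 cover counting error only.

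Log2 CPM used a prior count of 2. The SE of an edgeR log2 fold change was not estimated directly. It was derived as the absolute log2 fold change over the square root of the quasi-likelihood F statistic. Alternatives were other scalings and filters, DESeq2 1.42.0, limma-voom (limma 3.58.1), the title number or replicate number as a term, and each library left out. The scripts were tested on simulated data. The members and lists were chosen with earlier results of these data known. Named genes are all members, pathway genes past a threshold, the 2 of highest level per role (1 result is not reported here), and the 3 most alike; the 6 genes at an unadjusted p under 0.05 for the title number, Ep300, Mfng, Hes5 and Nrarp were chosen after their values were seen, as were other genes named as at or near 0. Single-cell data were not analysed here.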

Additional observations from a re-analysis of the deposited data

Results flagged for a closer look

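Within groups of 4 libraries (each genotype and each range of title numbers), 23 genes were examined for a library that stood apart by Dixon's ratio, the gap to the nearest library over the range of log2 CPM. Of 92 groups, which share libraries, 6 exceeded its 95% critical value, where chance gives about 4.6. Among the members, Jag1 in CTR1 was the highest of CTR, at 89.0 CPM against 47.6 to 49.9 CPM in the other 3 (ratio 0.924), and Hey1 in cKO2 was the lowest of cKO, at 16.2 CPM against 26.9 to 28.9 CPM (ratio 0.880). Of the other pathway genes, Ncstn was lowest in CTR1 among CTR (427 CPM, ratio 0.967) and Ctbp1 lowest in cKO2 among cKO (144 CPM, ratio 0.889). Among libraries numbered 26 to 32, CTR4 was lowest for Mib2 (34.6 CPM, ratio 0.833) and highest for Poglut1 (98.0 CPM, ratio 0.840).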

How the results depend on the processing

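The counts of called genes stayed at 0 for the members in both comparisons and for the other pathway genes in the genotype comparison under every alternative, a library left out included. For the title number, DESeq2's Wald and likelihood ratio tests each called 1 of the 44 other pathway genes, Dtx3 (log2 fold change -0.52, adjusted p 0.0241 and 0.0274), where the other alternatives called 0; the cause was not tested. The unadjusted p of Notch4 between genotypes ran from 0.0126 to 0.0847 over 19 settings, with an adjusted p of 0.517 to 1.00.

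The following signs changed, all of differences that passed no threshold. Within title numbers 26 to 32 the genotype difference was 0.24 for Jag1, 0.39 for Hes1 and -0.087 for Heyl. The title number difference of Jag1 was 0.020 without a genotype term and 0.43 within CTR, and that of Hes1 was -0.33 within cKO. With 1 library left out, the genotype log2 fold change ran from -0.43 to 0.010 for Jag1, -0.14 to 0.052 for Notch2, -0.37 to 0.13 for Hes1, -0.034 to 0.53 for Lfng and -0.22 to 0.75 for Heyl, and the title number one from -0.33 to 0.19 for Jag1, -0.032 to 0.056 for Notch3 and -0.18 to 0.44 for Hes1. Libraries of the same replicate number had correlated deviations of 0.131, 0.176, 0.0844 and 0.0572, so the numbers were not taken to pair the samples; with the replicate block, 0 members and 0 other pathway genes were called (Notch4 at -1.08). Members at 1 CPM per kilobase or more numbered 6 throughout, though the longest transcript moved Notch1 to 6.41, Hes1 to 108 and Hey1 to 9.59. Low counts limit what can be said of Jag2, Dll1 and Dll4.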
